A study of Mus musculus with 12 samples.

Results

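Messenger RNA of 9 genes that neurons switch on when they are active was followed in 12 mouse brains: the transcription factor gene Npas4, the synaptic genes Arc and Homer1, the secreted factors Bdnf and Nptx2, and the dual-specificity phosphatases Dusp1, Dusp4, Dusp5 and Dusp6. The genes were taken by name from a table of 56748 genes, in which each name occurred once, and all 9 were among the 19571 genes tested. The series' title concerns the effect of N,N-dimethylacetamide (DMA), an organic solvent also used in drug formulations, on brain inflammation set off by lipopolysaccharide (LPS), a component of bacterial outer membranes. Each of 3 arms held 4 adult C57BL/6 mice, 2 of each sex. The LPS+DMA mice had 7 daily intraperitoneal injections of 0.5 mg/kg LPS with concurrent intraperitoneal DMA. The sources used here give no dose of DMA. The LPS mice had the same LPS alone, and the PBS mice had sterile phosphate-buffered saline on the same schedule. Brains were taken on day 7, 1 library was made per mouse, and the tissue is given as whole brain. No arm had DMA without LPS, so an effect of DMA outside inflammation was not measured.

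Activity-regulated transcription starts when calcium enters a neuron through NMDA receptors and voltage-gated channels, and when the ERK kinases are activated. The transcription factors CREB, SRF and MEF2, already present in the resting cell, then turn on early genes within minutes. Npas4 is a transcription factor of this first wave, whereas Arc, Homer1, Bdnf and Nptx2 encode proteins that act at the synapse. The dual-specificity phosphatases remove phosphate from ERK, p38 and JNK kinases and so limit the pathway that induced them. Arc, Homer1 and Nptx2 are known above all from excitatory neurons of the cerebral cortex and hippocampus.

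Promoter sequence was available from RefSeq (GRCm38.p6, a build other than the GRCm39 of the expression table) for 6 of the 9 genes, with 13 annotated start sites, of which 7 belonged to Bdnf and 2 to Homer1. The 250 bases before each start were searched on both strands for the core of the cyclic AMP response element (CRE), TGACG, where CREB can bind, for the full element TGACGTCA, which contains the core on each strand, for the AP-1 site TGANTCA, for the Egr site GCGTGGGCG, for TATAAA and for the CArG box of SRF. The core stood in 17.8% of 32851 mouse promoters of this length, and at 2 or more places in 3.9%. The promoters of Npas4, Homer1 (number 1 of its 2), Dusp1, Dusp5 and Bdnf (number 3 of its 7) are shown because they hold the matches to the CRE core found in these genes. Capitals mark the core, read as CGTCA where it lies on the other strand, the full CRE of Dusp1 and the CArG boxes of Dusp5.
Npas4, chr19:4989972-4990221, minus strand: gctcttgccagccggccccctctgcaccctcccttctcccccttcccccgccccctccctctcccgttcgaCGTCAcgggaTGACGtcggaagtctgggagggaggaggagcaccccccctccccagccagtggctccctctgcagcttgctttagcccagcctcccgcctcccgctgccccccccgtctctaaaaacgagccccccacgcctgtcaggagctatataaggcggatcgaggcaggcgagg
Homer1, chr13:93303507-93303756, plus strand: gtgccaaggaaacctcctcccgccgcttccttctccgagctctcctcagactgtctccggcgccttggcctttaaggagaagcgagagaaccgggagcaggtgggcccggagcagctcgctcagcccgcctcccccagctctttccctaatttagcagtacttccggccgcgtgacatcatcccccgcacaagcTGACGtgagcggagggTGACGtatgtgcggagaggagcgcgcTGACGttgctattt
Dusp1, chr17:26508473-26508722, minus strand: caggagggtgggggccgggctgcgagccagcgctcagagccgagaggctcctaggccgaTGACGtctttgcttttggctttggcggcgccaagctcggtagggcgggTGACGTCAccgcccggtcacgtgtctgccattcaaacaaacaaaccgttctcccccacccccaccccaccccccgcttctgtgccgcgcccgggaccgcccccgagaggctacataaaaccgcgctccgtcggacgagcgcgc
Dusp5, chr19:53528895-53529144, plus strand: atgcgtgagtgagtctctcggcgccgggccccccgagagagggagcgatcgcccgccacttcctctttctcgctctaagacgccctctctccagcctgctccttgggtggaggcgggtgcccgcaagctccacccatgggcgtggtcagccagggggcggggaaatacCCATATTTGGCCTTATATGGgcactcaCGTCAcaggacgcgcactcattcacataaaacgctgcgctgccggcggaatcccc
Bdnf, chr2:109692186-109692435, plus strand: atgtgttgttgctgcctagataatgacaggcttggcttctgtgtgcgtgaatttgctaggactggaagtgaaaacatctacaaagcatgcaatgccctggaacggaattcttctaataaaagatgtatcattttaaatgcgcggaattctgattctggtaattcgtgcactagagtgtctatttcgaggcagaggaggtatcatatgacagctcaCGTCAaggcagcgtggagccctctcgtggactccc

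Homer1 held the core at 3 places, which began 56, 40 and 14 bases before the start, and Npas4 held it at 2, which began 179 and 169 bases before. In Dusp1 2 of 3 core matches were the arms of 1 full CRE, an element present in 1.55% of all promoters. Dusp5 held 1 core beside 2 CArG boxes that lay end to end, and a CArG box stood in 1.47% of all promoters. Homer1 promoter 2, the Dusp6 promoter and the other 6 Bdnf promoters held no CRE core, and an AP-1 site, present in 6.75% of all promoters, was found once, in Bdnf promoter 2. No Egr site (0.536% of all promoters) and no TATAAA (12.4%) was found in these 13 windows. These matches describe letters in a window and do not show that a factor was bound.

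Library depth lay between 27.5 and 41.4 M reads (M, megareads), recovered from the deposited values. Expression is given as FPKM, sequenced fragments per kilobase of a gene's length after scaling between libraries. The median-of-ratios measure, a library's median gene level relative to all libraries, was 1.01 in each. Totals weighted by gene length differed, at 1029080 to 1103280 in LPS+DMA, 916956 to 962575 in LPS and 951911 to 988684 in PBS. The deposited values were thus not scaled to equal totals. The libraries differed in the regions of brain they represented, although all carry the same tissue label. Gabra6, which granule cells of the cerebellum use in their GABA receptors, was listed at 0 in 7 libraries and at 0.170 FPKM in LPS+DMA M2. It reached 114, 15.6 and 90.5 FPKM in LPS F1, LPS M1 and LPS M2, and 74.6 FPKM in PBS F1 (F, female; M, male; the number is the replicate). These 4 libraries are called cerebellar below, but they were not alike in other regions. The 8 hindbrain and spinal cord markers summed to 26.4, 81.3 and 42.1 FPKM in LPS F1, M1 and M2, and to 4.29 FPKM in PBS F1. The cortex and hippocampus markers summed to 13.3, 2.86 and 3.21 FPKM in LPS F1, M1 and M2, and to 47.1 FPKM in PBS F1. The 8 markers of cortex and hippocampus summed to between 62.8 and 127 FPKM in LPS+DMA, between 2.86 and 68.5 FPKM in LPS and between 47.1 and 84.0 FPKM in PBS. The 8 cerebellum markers summed to between 11.9 and 17.8 FPKM in LPS+DMA, between 20.5 and 701 FPKM in LPS and between 18.4 and 471 FPKM in PBS. The 9 choroid plexus markers summed to between 22.8 and 498 FPKM in LPS+DMA, between 253 and 2005 FPKM in LPS and between 38.5 and 412 FPKM in PBS. The 8 general neuron markers had similar sums, at 902 to 1257 FPKM in LPS+DMA, 1015 to 1202 FPKM in LPS and 999 to 1092 FPKM in PBS, although in LPS+DMA against LPS 2 of them rose and 2 fell. In such bulk tissue, fewer cells of a type and less RNA per cell cannot be told apart.

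Homer1 (chr13:93436143-93541637 on GRCm39, plus strand) encodes a scaffold that ties metabotropic glutamate receptors to calcium stores. Neuronal activity induces its short form, and the gene-level value here merges the short and long forms. Homer1 was at 30.6, 19.0, 15.0 and 21.0 FPKM in LPS+DMA, at 5.09, 17.0, 2.85 and 2.78 FPKM in LPS and at 19.2, 23.0, 13.0 and 14.1 FPKM in PBS (values in the order F1, F2, M1, M2 here and below). The low libraries were LPS F1, M1 and M2, the same that carried cerebellar signal, while LPS F2 lay inside the range of both other arms. Homer1 rose in LPS+DMA against LPS by 1.78 ± 0.32 on the log2 scale (SE, adjusted p = 0.0197, limma with Benjamini-Hochberg adjustment over all genes). PBS F1 carried cerebellar signal as well, yet held 19.2 FPKM of Homer1 and 8.63 FPKM of Tbr1, a transcription factor of cortical excitatory neurons. Tbr1 was at 1.19, 0.0670 and 0.0512 FPKM in LPS F1, M1 and M2.

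**Figure D1:**
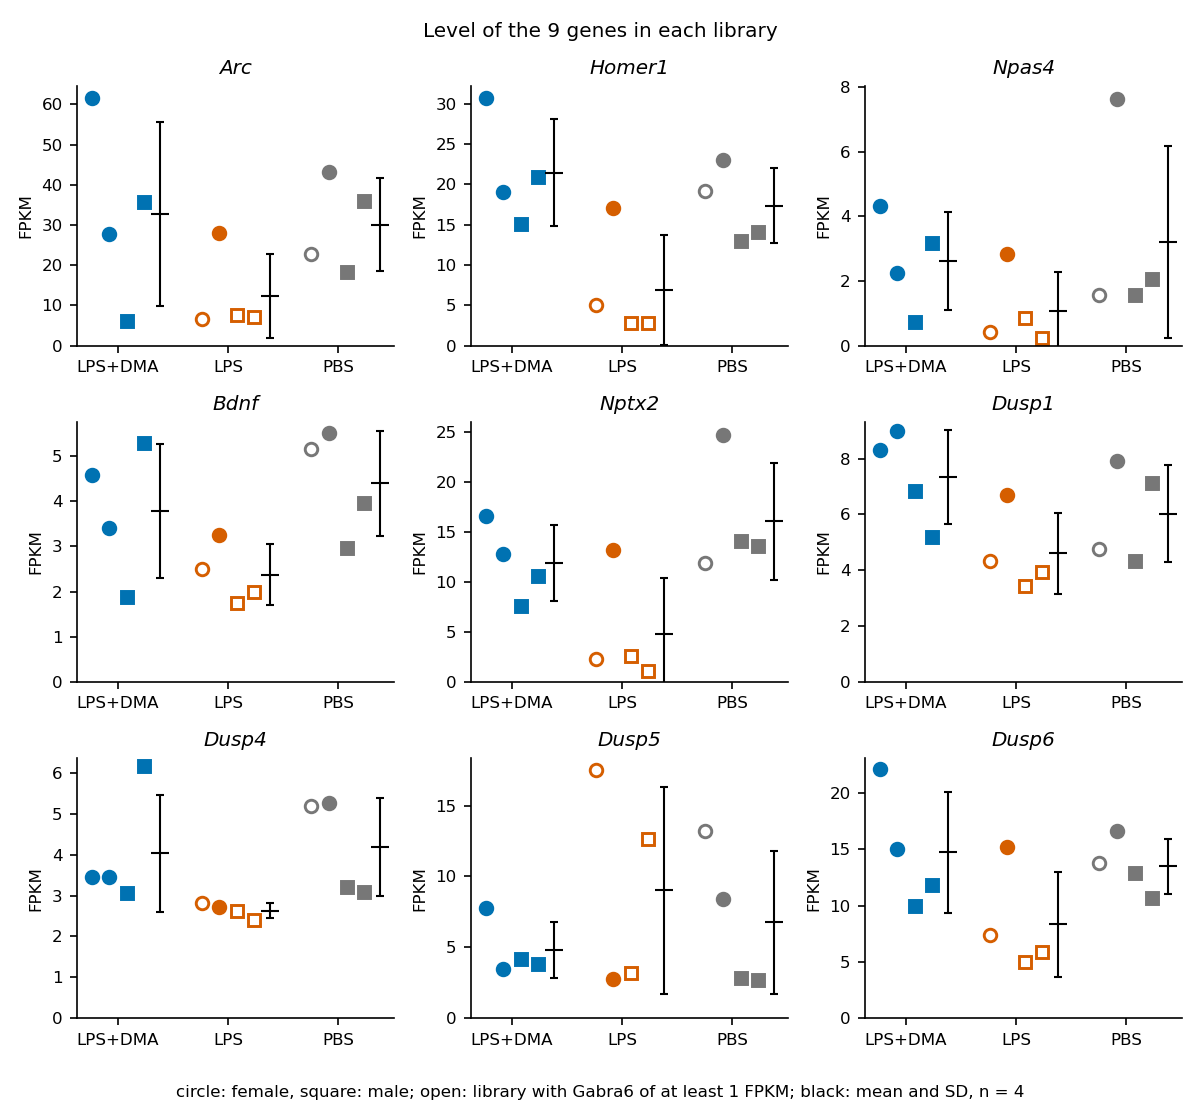
FPKM (y axis) of each of the 9 genes in every library of the LPS+DMA, LPS and PBS arms (x axis). Circles are females and squares males, open symbols are the 4 libraries with cerebellar signal, and black marks give the mean and SD (n = 4 each, with bars below 0 not drawn). For Homer1, Arc, Nptx2 and Dusp6 the 3 open LPS symbols lie below all PBS symbols and the filled LPS symbol, LPS F2, lies apart from them.

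Arc (chr15:74540932-74544419, minus strand) encodes a protein that reaches active dendrites and drives the removal of AMPA receptors from the synapse. It was at 61.6, 27.8, 6.13 and 35.6 FPKM in LPS+DMA, at 6.66, 28.0, 7.70 and 7.11 FPKM in LPS and at 22.8, 43.1, 18.3 and 36.1 FPKM in PBS. Arc in LPS+DMA M1 was as low as in the cerebellar LPS libraries although that library had no Gabra6. LPS+DMA M1 differed from its arm in other ways. Its cortex and hippocampus, microglia, oligodendrocyte and red blood cell markers had the lowest sums of the arm, at 62.8, 45.6, 376 and 29.0 FPKM. The part of this in its Arc level was not tested. The LPS+DMA mean was 32.8 ± 22.9 FPKM against 12.4 ± 10.4 FPKM in LPS (SD, n = 4 each), and the groups overlapped. The difference of 1.23 ± 0.55 on the log2 scale did not pass (adjusted p = 0.169, limma), and it passed, at 1.78, in 1 of 25 alternative fits, that without LPS+DMA M1.

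Npas4 (chr19:5034383-5040344, minus strand) encodes a neuron-specific transcription factor that adjusts inhibitory synapses. It was the lowest of the 9 genes, and its recovered reads ranged from 36 in LPS M2 to 1167 in PBS F2. Its level was 4.31, 2.25, 0.731 and 3.19 FPKM in LPS+DMA, 0.406, 2.84, 0.850 and 0.222 FPKM in LPS and 1.56, 7.65, 1.56 and 2.05 FPKM in PBS. All 3 arms overlapped, and PBS F2 stood alone at the top. The LPS+DMA against LPS difference of 0.84 ± 0.42 did not pass the test (adjusted p = 0.216, limma).

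Nptx2 (chr5:144482712-144494288, plus strand) encodes a secreted pentraxin that gathers AMPA receptors at excitatory synapses on interneurons. It was at 16.6, 12.8, 7.56 and 10.5 FPKM in LPS+DMA, at 2.28, 13.1, 2.58 and 1.05 FPKM in LPS and at 11.9, 24.7, 14.0 and 13.6 FPKM in PBS. The 3 cerebellar LPS libraries lay below all libraries of the other arms, and LPS F2 lay within the LPS+DMA range. Nptx2 rose in LPS+DMA against LPS by 1.54 ± 0.41 on the log2 scale (adjusted p = 0.0425, limma). Of the 4 PBS values 3 lay between 11.9 and 14.0 FPKM, so the PBS mean of 16.1 ± 5.83 FPKM rests partly on PBS F2.

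Bdnf (chr2:109505045-109557352, plus strand) encodes the secreted ligand of the TrkB receptor, and the value merges transcripts from its several promoters. It was at 4.59, 3.40, 1.89 and 5.29 FPKM in LPS+DMA, at 2.49, 3.26, 1.75 and 2.00 FPKM in LPS and at 5.16, 5.52, 2.98 and 3.96 FPKM in PBS. LPS overlapped both other arms, through LPS+DMA M1 on one side and LPS F2 on the other. The LPS+DMA against LPS difference was 0.47 ± 0.21 (adjusted p = 0.174, limma) and did not pass.

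Dusp6 (chr10:99099093-99103351, plus strand), a cytoplasmic phosphatase selective for ERK, was at 22.2, 15.0, 9.96 and 11.8 FPKM in LPS+DMA. It was at 7.35, 15.2, 4.96 and 5.85 FPKM in LPS and at 13.8, 16.6, 12.9 and 10.6 FPKM in PBS. The pattern was that of Homer1: LPS F1, M1 and M2 lay below every library of the other arms, and LPS F2 lay inside both ranges. Dusp6 rose in LPS+DMA against LPS by 0.81 ± 0.21 on the log2 scale (adjusted p = 0.0367, limma).

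Dusp1 (chr17:26724564-26781102, minus strand) encodes a nuclear phosphatase of p38, JNK and ERK that also answers to stress and glucocorticoids in many cell types. It was at 8.32, 8.98, 6.85 and 5.20 FPKM in LPS+DMA, at 4.34, 6.70, 3.43 and 3.95 FPKM in LPS and at 4.76, 7.90, 4.34 and 7.12 FPKM in PBS. The arms overlapped, with LPS F2 again the highest LPS library. The LPS+DMA against LPS difference of 0.58 ± 0.19 missed the threshold (adjusted p = 0.0749, limma), and it passed, at 0.70, in 1 of 25 alternative fits, that without LPS F2.

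Dusp4 (chr8:35274451-35287048, plus strand), a nuclear ERK and JNK phosphatase, was at 3.46, 3.46, 3.06 and 6.17 FPKM in LPS+DMA. It was at 2.81, 2.72, 2.61 and 2.40 FPKM in LPS and at 5.19, 5.26, 3.21 and 3.08 FPKM in PBS. Dusp4 was the one gene of the 9 for which all LPS libraries, LPS F2 among them, lay below all libraries of both other arms. Over all genes tested, every LPS+DMA library was above every LPS library for 6.26%, and every LPS library was below every PBS library for 3.3%. The differences were small, 0.44 ± 0.20 in LPS+DMA against LPS (adjusted p = 0.174) and -0.48 ± 0.20 in LPS against PBS (adjusted p = 0.403), and neither passed in limma.

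Dusp5 (chr19:53517540-53530862, plus strand), a nuclear phosphatase of ERK, followed another pattern. It was at 7.77, 3.47, 4.16 and 3.81 FPKM in LPS+DMA, at 17.5, 2.72, 3.18 and 12.6 FPKM in LPS and at 13.2, 8.39, 2.83 and 2.66 FPKM in PBS. The highest 3 values belonged to the 3 libraries with the most Gabra6, LPS F1, PBS F1 and LPS M2, while LPS M1, with the least Gabra6 of the 4, was at 3.18 FPKM. The LPS+DMA against LPS difference was -0.50 ± 0.53 (adjusted p = 0.561, limma). It was 0.95 ± 0.46 without the cerebellar libraries, a change of direction that also did not pass.

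In LPS+DMA against LPS, 3 of the 9 genes passed, Homer1, Nptx2 and Dusp6, all higher. Over all genes 1892 passed (9.67%), 1133 of them higher (5.79%) and 759 lower. Of the genes that passed, 59.9% were higher as deposited and 20% after rescaling each library to a fixed sum of FPKM. That sum is not weighted by gene length, unlike the totals given above. The weighted totals were higher in every LPS+DMA library than in every LPS library. Their part in the shift was not tested. An unadjusted p under 0.05 was found for 7 of the 9 genes and for 28.4% of all genes. The median change of the 9 genes was 0.81 against 0.0100 for all genes, and Dusp5 was the only one of the 9 with a negative change. Over 25 alternative fits Homer1 passed in 17, Dusp6 in 11 and Nptx2 in 8, and the calls depended on single libraries. Without LPS F1, LPS M1 or LPS M2, none of the 9 genes passed, with adjusted p of 0.0784, 0.0824 and 0.0703 for Homer1 in limma. In these fits only 11, 7 and 22 of all genes passed, in place of 1892. The loss of calls was thus not particular to the 9 genes. Homer1 still differed by 1.61, 1.67 and 1.66. Dusp6 did not pass without LPS+DMA F1, M1 or M2, LPS F1, M1 or M2, or PBS M2, with adjusted p between 0.0505 and 0.121. Nptx2 passed when LPS F2 or PBS F1 was left out and missed the threshold without each of the other 10 libraries, with adjusted p between 0.0534 and 0.132.

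**Figure D2:**
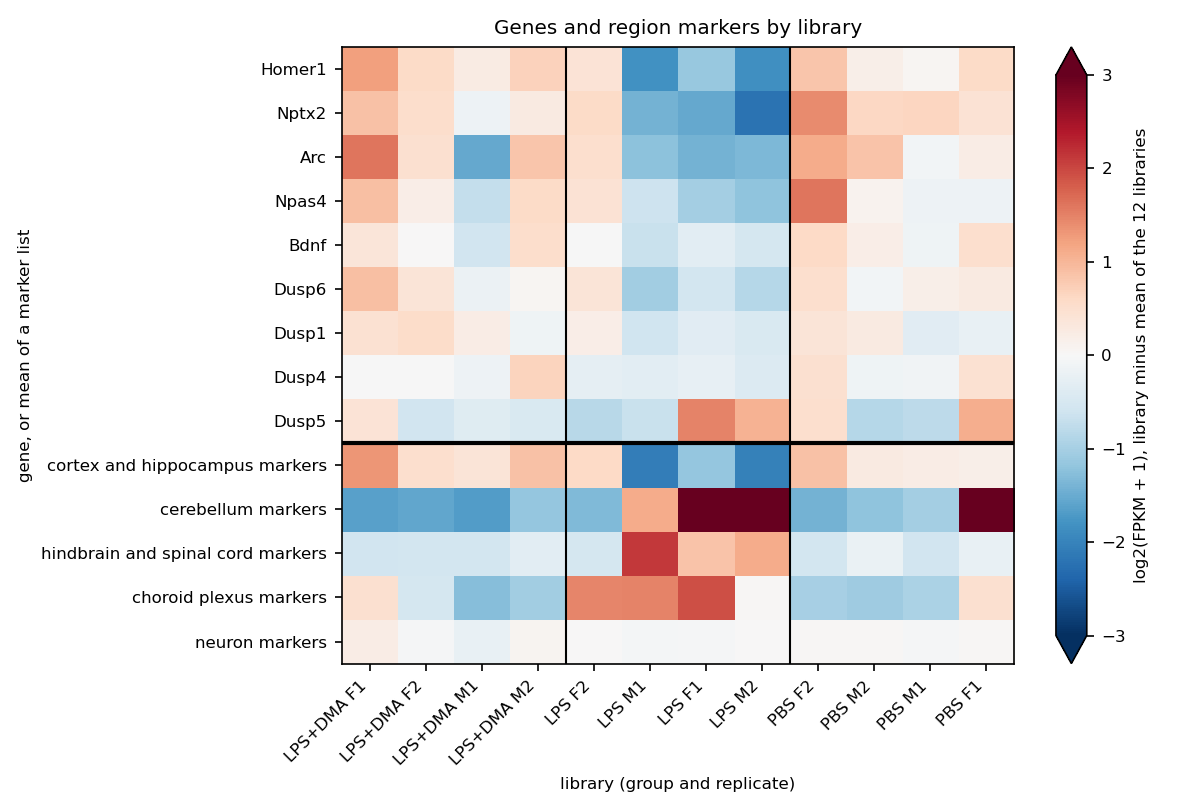
Level of each gene (upper rows) and mean of each marker list (lower rows) per library (columns), as log2(FPKM + 1) minus the mean of the 12 libraries, with red above and blue below that mean and colours capped at 3. Within each arm the libraries run from the highest to the lowest forebrain minus cerebellum score. In LPS M1, F1 and M2 the genes other than Dusp5 and the cortex and hippocampus markers are blue together, and PBS F1, with cerebellum markers as red, keeps both near the mean.

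In LPS against PBS, 8 of the 9 genes were lower on average, with a median change of -0.73 against -0.0093 for all genes, but none of the 9 passed in limma or in voom on the recovered reads. Only 2 of all genes passed (0.0102%). An unadjusted p under 0.05 was found for 7 of the 9 genes, against 11% of all genes. The largest differences were those of Nptx2, -1.94 ± 0.41 (4.76 ± 5.62 FPKM in LPS against 16.1 ± 5.83 FPKM in PBS), and Homer1, -1.50 ± 0.32 (6.94 ± 6.81 FPKM in LPS against 17.3 ± 4.65 FPKM in PBS; SD, n = 4 each). Both had an adjusted p of 0.195 in limma. Arc differed by -1.40 ± 0.55, Npas4 by -0.96 ± 0.42, Dusp6 by -0.73 ± 0.21, Bdnf by -0.67 ± 0.21, Dusp1 by -0.33 ± 0.19 and Dusp5 by 0.27 ± 0.53. Leaving out LPS F2 brought Homer1 (-1.91), Nptx2 (-2.44) and Dusp6 (-0.96) past the threshold, the 1 alternative of 25 in which any of the 9 genes passed in this comparison. Of all genes 672 then passed.

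In LPS+DMA against PBS, none of the 9 genes passed in limma or voom, none had an unadjusted p under 0.05 (11.4% of all genes did), and 2 of all genes passed (0.0102%). The differences ran from -0.40 for Nptx2 to 0.28 for Homer1. With 4 mice an arm the 95% intervals were wide. They reached from -1.31 to 0.51 for Nptx2, from -0.42 to 0.98 for Homer1, from -1.38 to 1.04 for Arc and from -0.38 to 0.53 for Dusp6, so these data do not exclude differences within those bounds. In mean FPKM, Arc, Homer1, Dusp1 and Dusp6 were ordered LPS+DMA, PBS, LPS from high to low, and Npas4, Bdnf, Nptx2 and Dusp4 were ordered PBS, LPS+DMA, LPS. Dusp5 was highest in LPS, then PBS, then LPS+DMA. The PBS mean of Npas4 rests largely on PBS F2, at 7.65 FPKM. By median, Npas4 was higher in LPS+DMA (2.72 FPKM) than in PBS (1.80 FPKM). The LPS+DMA and PBS ranges overlapped for all 9 genes. LPS+DMA against LPS and LPS against PBS use the same LPS libraries, so their opposite signs are not independent.

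The 9 genes were next compared in fits that take account of the region represented. The score used was the mean log2 level of the cortex and hippocampus markers minus that of the cerebellum markers. It was 1.89 to 2.80 in the LPS+DMA libraries, -4.87, 1.78, -3.34 and -5.39 in LPS and -3.04, 2.14, 1.09 and 1.32 in PBS. PBS F1 and LPS M1 thus had similar scores. Their cortex and hippocampus markers differed, with a mean log2 level of 2.56 in PBS F1 and 0.31 in LPS M1. The score therefore treats PBS F1 as poor in forebrain, and the effect of this on the differences against PBS was not tested. With this score in the fit none of the 9 genes passed in LPS+DMA against LPS, and 2 of all genes did. Of the 9, 1 (Homer1) had an unadjusted p under 0.05, against 8.91% of all genes in that fit. The Homer1 difference was then 0.92 ± 0.30, that of Nptx2 0.17 ± 0.20 and that of Dusp6 0.28 ± 0.21. The median of the 9 genes was 0.28, against 0.022 for all genes. In LPS against PBS the median of the 9 genes with the score was -0.60, against -0.73 without it, and the fitted differences of all 9 were negative. None passed, and 4 of the 9 had an unadjusted p under 0.05, against 4.94% of all genes. The score left Arc, in LPS+DMA against LPS, at 0.11 ± 0.67 and Npas4 at -0.22 ± 0.44. With choroid plexus and red blood cell scores in the fit instead, none of the 9 genes passed in LPS+DMA against LPS, while the differences stayed larger and their errors grew: Homer1 was at 1.58 ± 0.59, Nptx2 at 1.27 ± 0.82 and Dusp6 at 0.66 ± 0.39, with a median of the 9 genes of 0.52. Of the 9, 1 had an unadjusted p under 0.05. No gene of the table then passed in limma, and 648 (3.31%) had an unadjusted p under 0.05.

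Leaving the 4 cerebellar libraries out kept 4 LPS+DMA, 3 PBS and only 1 LPS library, LPS F2, which the fit takes to vary as the other arms do. In that fit the LPS+DMA against LPS differences were 0.54 ± 0.32 for Homer1, 0.17 ± 0.25 for Nptx2, 0.20 ± 0.27 for Dusp6 and 0.44 ± 0.40 for Dusp4, and none of the 9 genes passed or had an unadjusted p under 0.05. In LPS against PBS the fitted, sex-adjusted differences of all 9 genes were negative in these 8 libraries, with a median of -0.48. They rest on LPS F2 as the only LPS library. For Homer1, LPS F2 (17.0 FPKM) lay below PBS F2 (23.0 FPKM) but above PBS M1 (13.0 FPKM) and PBS M2 (14.1 FPKM). For Dusp6, LPS F2 (15.2 FPKM) lay below PBS F2 (16.6 FPKM) but above PBS M1 (12.9 FPKM) and PBS M2 (10.6 FPKM). LPS F2 was inside the range of the other PBS libraries for Arc, Homer1, Npas4, Bdnf, Dusp1, Dusp5 and Dusp6. It was just below that range for Nptx2 (13.1 FPKM in LPS F2 against 13.6 to 24.7 FPKM in PBS F2, M1 and M2) and Dusp4 (2.72 FPKM against 3.08 to 5.26 FPKM). Nptx2 was lower in LPS against PBS by -0.80 ± 0.26 in these 8 libraries and by -1.04 ± 0.17 with the score in the fit. Its LPS+DMA against PBS difference was -0.64 ± 0.16 in the 8 libraries and -0.87 ± 0.15 with the score, against -0.40 ± 0.41 over the 12 libraries. None of these Nptx2 differences passed, with an adjusted p of at least 0.286 in limma for each.

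**Figure D3:**
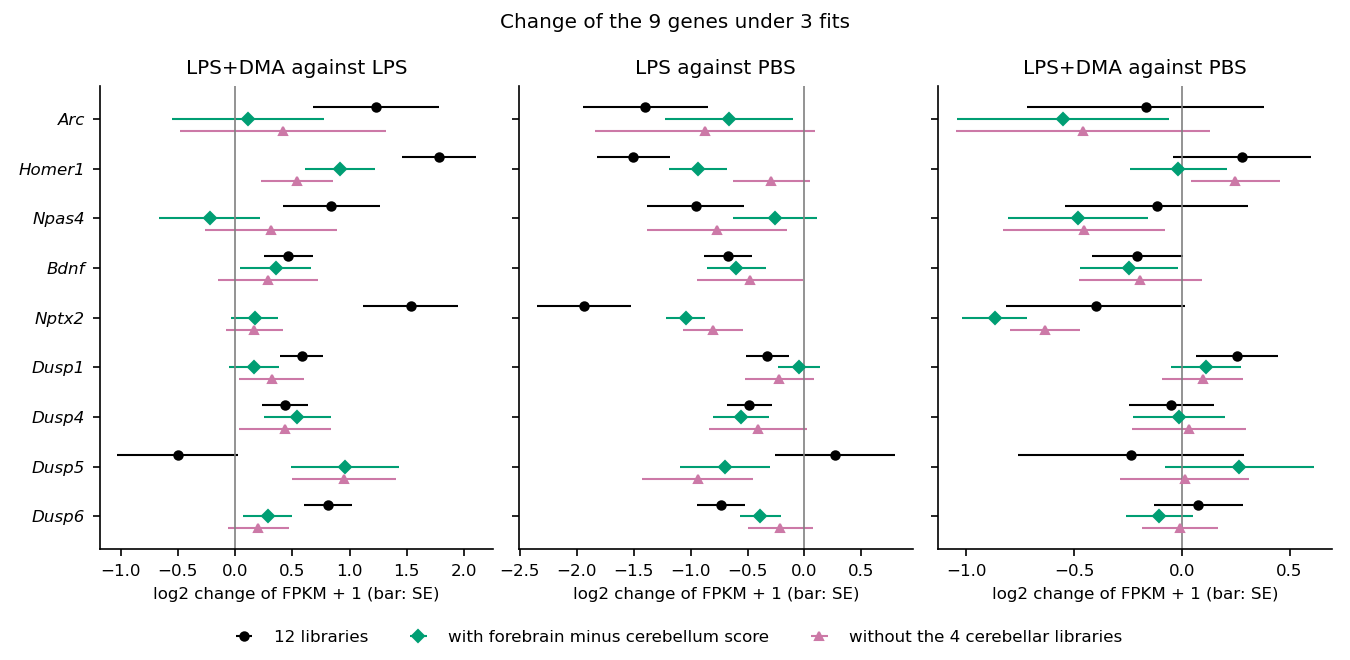
Log2 change of FPKM + 1 (x axis, bars are the SE) of each gene (y axis) in the 3 comparisons (panels), from the fit to the 12 libraries (black circles), the fit with the forebrain minus cerebellum score (green diamonds) and the fit without the 4 cerebellar libraries (pink triangles). In LPS+DMA against LPS, Homer1 lies at 1.78, 0.92 and 0.54, Nptx2 at 1.54, 0.17 and 0.17, and Dusp5 crosses 0, at -0.50, 0.96 and 0.95.

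Sexes were compared by the difference of each treatment effect between males and females. None of the 27 tests (9 genes in 3 comparisons) passed in limma, 1 had an unadjusted p under 0.05, and none passed in voom. The smallest unadjusted p was that of Dusp4 in LPS+DMA against PBS (0.0281, adjusted p = 0.838, limma), with a change of 0.38 in males and -0.48 in females. Of the LPS+DMA libraries, M2 held 6.17 FPKM of Dusp4 and the other 3 at most 3.46 FPKM. Homer1 in LPS+DMA against LPS changed by 2.30 in males and 1.26 in females, a difference of 1.03 ± 0.61, and both male LPS libraries but only 1 of the 2 female LPS libraries were cerebellar.

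Genes linked to the 9 by induction, pathway or protein contact were described by counts in LPS+DMA against LPS. Of all genes tested 5.79% rose, and the median of all was 0.0100. Of 39 further activity-regulated genes, 13 (33.3%) rose and none fell, with a median change of 0.62. Among them were the transcription factors Egr3 (2.82 ± 0.59, adjusted p = 0.0225) and Nr4a1 (1.75 ± 0.32, adjusted p = 0.0203), Plk2, a kinase that limits synapses after strong activity (2.08 ± 0.42, adjusted p = 0.0214), and the sorting receptor gene Sorcs3 (0.75 ± 0.15, adjusted p = 0.0218, all limma). In LPS against PBS 34 of the 39 were lower on average, with a median of -0.47. None of the 39 passed in limma or voom. In each, 19 of them had an unadjusted p under 0.05, against 11% of all genes in limma and 11.7% in voom. Of 23 genes of the calcium, CREB, SRF, MEF2 and ERK pathway that leads to these promoters, 15 (65.2%) rose and none fell, with a median of 0.68. The 4 with the smallest p were the transcription factor Mef2d (0.94), the obligatory NMDA receptor subunit gene Grin1 (0.70), the calcium-dependent kinase gene Camk2b (0.94) and the ERK pathway kinase gene Braf (0.70).

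Of 21 genes for partners, receptors and relatives of Arc, Npas4, Homer1, Bdnf and Nptx2, 7 (33.3%) rose and none fell, with a median of 0.53. They included the AMPA receptor subunit Gria2 (1.17 ± 0.20), the Homer-binding glutamate receptor Grm5 (1.38 ± 0.31), the sorting receptor Sort1 (0.79 ± 0.18), which binds the BDNF precursor, and Arnt2 (0.64 ± 0.16), the partner of NPAS4 on DNA. Of 8 other genes that ERK induces, 3 (37.5%) rose, the inhibitors Spred1 (0.66) and Spry2 (0.82) and the transcription factor Etv5 (0.92), and the median of the 8 was 0.19. The other MAP kinase phosphatases did not share a direction: of 5 tested, Dusp8 rose (0.77), Dusp7 differed by 0.65, Dusp10 by -0.91 and Dusp16 by -0.44 without passing, and Dusp9 was too low to be tested. In the same comparison 7 of 8 cortex and hippocampus markers rose, 6 of 9 choroid plexus markers and 4 of 8 hindbrain and spinal cord markers fell, and all 8 cerebellum markers were lower in LPS+DMA, with a median of -3.10, without passing. All 8 striatum markers were higher in LPS+DMA (median 1.78, 1 passed), with sums of 50.8 to 988 FPKM in LPS+DMA, 89.3 to 298 FPKM in LPS and 73.2 to 114 FPKM in PBS. All 5 red blood cell markers were lower in LPS+DMA (median -1.51, none passed), with sums of 29.0 to 296 FPKM in LPS+DMA, 243 to 946 FPKM in LPS and 71.1 to 116 FPKM in PBS. The 5 oligodendrocyte markers (median -1.26, 1 fell) and the 5 microglia markers (median -0.66, 2 fell) were lower as well. The part of the striatum, oligodendrocyte and microglia markers in these results was not tested. With the forebrain minus cerebellum score in the fit, no gene of these 5 lists passed in limma. The median was then 0.33 for the 39 activity-regulated genes, 4 of them with an unadjusted p under 0.05, and 0.43 for the 23 pathway genes, 7 of them with such a p, against 8.91% of all genes. Without the cerebellar libraries no gene of the lists passed either, these medians were 0.29 and 0.29, and 1 gene of each of these 2 lists had an unadjusted p under 0.05, against 3.7% of all genes.

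**Figure D4:**
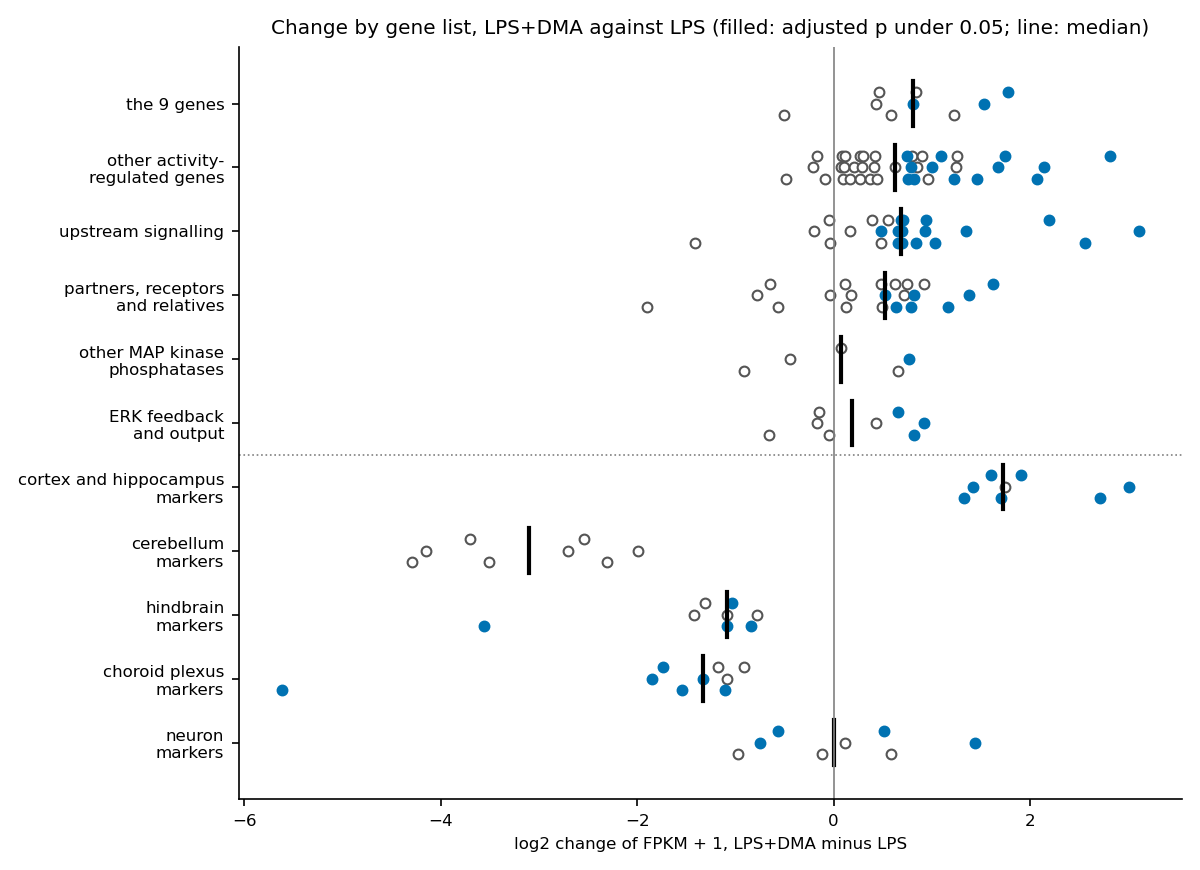
Log2 change of FPKM + 1 in LPS+DMA minus LPS (x axis) for every tested gene of each list (rows), with genes at an adjusted p under 0.05 filled, others open, and the median as a black line. The 9 genes, the other activity-regulated genes and the upstream signalling genes lie mostly above 0, as do the cortex and hippocampus markers below the dotted line, while hindbrain and choroid plexus markers lie below 0.

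Across the 12 libraries, pairs of the 9 genes differed in how closely their levels followed each other. The Pearson r of log2(FPKM + 1) was 0.95 between Homer1 and Dusp6, 0.93 between Homer1 and Nptx2, 0.90 between Arc and Npas4 and 0.88 between Arc and Bdnf. In the 8 libraries without cerebellar signal these values were 0.81, 0.46, 0.82 and 0.90. Other pairs were loose: r was 0.24 between Dusp1 and Dusp4, 0.48 between Bdnf and Dusp1 and 0.50 between Dusp4 and Dusp6, and -0.13, 0.14 and 0.065 in the 8 libraries. Dusp5 had r between -0.38 and 0.11 with the other 8 genes over the 12 libraries and between 0.40 and 0.82 over the 8. These are descriptions of few libraries that share the same arms and the same regional differences.

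Among 13686 protein-coding genes, the gene most like each of the 9 in level across the 12 libraries was recorded as well. It was Tbr1 for Homer1 (r = 0.99 over 12 libraries and 0.95 over the 8 without cerebellar signal), a marker of cortical excitatory neurons. It was the zinc transporter gene Slc39a10 for Arc (0.98 and 0.96), the phosphatase gene Ppm1e for Npas4 (0.96 and 0.92), Thbs4, a secreted thrombospondin, for Bdnf (0.95 and 0.96) and Nlk, a kinase, for Dusp6 (0.98 and 0.93). Nptx2 was most like Necab1 (0.96 and 0.71) and had the activity-regulated factor Egr3 next (0.96 and 0.76). Dusp1 was most like Tfcp2l1 (0.95 and 0.89), Dusp4 like Fermt1 (0.91 and 0.92) and Dusp5 like Trmt9b (0.95 and 0.87).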

How the data were processed

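Poly-T purified RNA was sequenced. The labels' protocols describe a stranded and an unstranded preparation and do not say which applies, so genes overlapping on opposite strands are uncertain. The authors deposited FPKM values with gene lengths and GRCm39 coordinates for 56748 genes. Tools named in the submitters' processing notes, without roles, are DESeq2 1.42.0, edgeR 4.0.16, HISAT2 2.2.1, STAR, GATK, fastp and featureCounts 2.0.6. FPKM times length was a whole multiple of 1 step, within 0.1 reads, for 100% of values up to 1000 reads, which gave reads and depth. No 2 libraries agreed within counting noise (chi-square per degree of freedom at least 24.8 over 66 pairs).

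Genes with at least 0.5 FPKM in at least 2 of 12 libraries (19571) were analysed as log2(FPKM + 1), which understates changes of low genes. Tests used limma 3.58.1 in R 4.3.3 (sex and treatment over 12 libraries, trended robust variances, Benjamini-Hochberg adjustment over all genes tested, threshold 0.05). The code was run on simulated data with independent noise for each gene and library. That check does not cover regional differences shared by many genes.

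The 9 genes and all lists were chosen with earlier results of these data known. From each list up to 4 genes with the smallest p in LPS+DMA against LPS were named, and for likeness genes among the 3 with the highest r. List counts under the region fits were added after seeing the data.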

Additional observations from a re-analysis of the deposited data

Results flagged for a closer look

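In each arm of 4, the highest and lowest library of each of the 9 genes were compared with the nearest other library, which gave 27 groups. In 3 of them 1 library stood apart by Dixon's 95% criterion, and chance flags about 1 in 20 groups. Arc in LPS F2 was at 28.0 FPKM, while the other LPS libraries lay between 6.66 and 7.70 FPKM. LPS F2 was the LPS library without cerebellar signal. Npas4 in PBS F2 was at 7.65 FPKM, while the other PBS libraries lay between 1.56 and 2.05 FPKM. PBS F2 also had the highest PBS values of Arc, Homer1, Bdnf, Nptx2, Dusp1, Dusp4 and Dusp6. Its cortex and hippocampus markers summed to 84.0 FPKM, against 47.1, 47.9 and 49.2 FPKM in PBS F1, M1 and M2. The part of this regional difference in its high values was not tested. Dusp4 in LPS+DMA M2 was at 6.17 FPKM, while the other LPS+DMA libraries lay between 3.06 and 3.46 FPKM.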

How the results depend on the processing

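Of the 9 genes, 3 passed in LPS+DMA against LPS. The number was 0 with no filter, with only the 2 groups compared, with the forebrain minus cerebellum score, with the choroid plexus and red blood cell scores and without the cerebellar libraries. It was 1 with a fixed sum per library or no sex term, and 0 to 4 with 1 library left out. It was 3 under the other 6 alternatives. All genes passing numbered 1892, and 83, 5, 2, 0 and 5 under the first 5 settings named. Leaving out 1 library gave 7 to 3465. In LPS against PBS the number of the 9 genes was 0 to 3 with 1 library left out, and in LPS+DMA against PBS and in the sex comparison it was 0 throughout.

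Directions turned as follows. In LPS against PBS, Dusp5 was -0.69 with the forebrain score and -0.94 without the cerebellar libraries, and Dusp1 was 0.25 with the choroid plexus and blood scores. In LPS+DMA against LPS, Npas4 was -0.22 and Dusp5 0.96 with the forebrain score, and Dusp5 0.95 without the cerebellar libraries. In LPS+DMA against PBS, where all differences were small, Homer1 was -0.017, Dusp5 0.27 and Dusp6 -0.10 with the forebrain score. Dusp4 was 0.033, Dusp5 0.013 and Dusp6 -0.0077 without the cerebellar libraries, and Dusp6 was -0.063 with a fixed sum. The cause of these turns was not tested. With 1 library left out, Dusp5 in LPS against PBS ran from -0.16 to 0.81. In LPS+DMA against PBS, Arc ran from -0.51 to 0.38, Npas4 from -0.43 to 0.23, Dusp4 from -0.28 to 0.038, Dusp5 from -0.42 to 0.050 and Dusp6 from -0.034 to 0.18.

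Same-numbered libraries deviated from the means of their arm and sex with correlations of -0.071 to 0.45, the highest between LPS and PBS females. Each such mean holds 2 libraries, so replicates 1 and 2 give the same correlation, and this check cannot decide whether the numbers paired the mice. With a replicate block, 3 of the 9 genes passed in LPS+DMA against LPS, 0 in each other comparison, and 2040 of all genes passed in place of 1892. Reads per library limit Npas4 most, with 36 reads in its lowest library.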
